A study of Homo sapiens with 6 samples.

Results

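The epidermal growth factor (EGF) receptor family and its ligands were followed through 7 genes: the ligand genes AREG, EREG, TGFA and HBEGF and the receptor genes EGFR, ERBB2 and ERBB3. Of the 7 genes, 6 had at least 1 detected probe, among 12187 genes with a detected probe on the arrays, and 10 of their 14 probes were detected on at least 1 array. AREG, which encodes amphiregulin, was not analysed here. A probe was called detected where its detection p-value, its rank against the negative control beads of the array, was below 0.01. Signals are given as log2 of the array signal after quantile normalization, and a difference of 1 on this scale is a 2-fold difference.

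Ligands of the family are made as membrane-anchored precursors, and cell-surface proteases of the ADAM group release them. A released ligand binds the outer part of a receptor, receptors pair, and their kinase domains phosphorylate each other's tails, which recruits adaptors that switch on the RAS to ERK and the PI3K to AKT pathways. EGFR binds EGF, TGF-alpha, amphiregulin, epiregulin and the heparin-binding EGF-like growth factor. ERBB2 has no known ligand and acts as a partner, and ERBB3 binds neuregulins but has a weak kinase. In epithelial tumours such as those of the colon and the ovary, EGFR and ERBB2 are well known as growth receptors and drug targets.

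The study asked how cancer cell lines respond to imetelstat, a lipid-conjugated oligonucleotide complementary to the template of the telomerase RNA. Established lines were used, HCT116 and COLO205 of colon cancer origin and OVCAR5 of ovarian cancer origin as the study describes them, and were grown for 2 weeks with imetelstat or with vehicle, and RNA of each of the 6 cultures was hybridized to 1 expression array. The labels name the control as vehicle, whereas the study's methods name a mismatch oligonucleotide and its account of the arrays calls the control cells untreated, so that the control agent is not settled. The study states that its experiments had biological replicates, but the labels give 1 array for each line and agent, and within a line no replicate error could be had, so that no p-value is given for a single line.

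The arrays did not all look as their labels would have them. Across 21099 detected probes, Pearson's r was 0.976 to 0.987 between arrays labelled HCT116 and COLO205, 0.987 between the vehicle and imetelstat arrays of each of those lines, and 0.886 to 0.893 in pairs with an OVCAR5 array. Of 12 markers of colon epithelium, 10 were detected on some array, 4 of them on every HCT116 and COLO205 array and 10 and 8 on the OVCAR5 vehicle and imetelstat arrays, where KRT20, CDH17, CEACAM5 and CEACAM6 were detected and on the other arrays were not. The median log2 signal of the 10 markers was 6.72 to 6.88 on the HCT116 and COLO205 arrays and 9.61 and 9.26 on the OVCAR5 arrays. The 4 detected on every array were CDX2, EPCAM, KRT8 and KRT18. The others were kept through OVCAR5 signals alone, so their part in these medians was bound to be higher there. CDX2, an intestinal transcription factor, differed in OVCAR5 by -0.02 from HCT116 and by 0.06 from COLO205, whereas EPCAM, KRT8 and KRT18 were higher in OVCAR5. Of 8 ovarian carcinoma markers 3 to 4 were detected on each array, with a median log2 signal over the 5 detected somewhere of 7.07 to 7.23 on the HCT116 and COLO205 arrays and 9.30 and 9.09 on the OVCAR5 arrays, and WT1, SOX17 and ESR1 were detected on none. By mean level MUC16, MSLN and FOLR1 were higher in OVCAR5 than in either other line. PAX8 differed in OVCAR5 by -0.19 from HCT116 and 0.01 from COLO205, and EMX2 by -0.02 and -0.19. The label names are kept below, but the arrays labelled COLO205 were about as close to the HCT116 arrays as the HCT116 arrays were to each other, and comparisons of OVCAR5 with either line are not independent of each other. Between 15627 and 17276 probes were detected per array, and the mean signal was 454 to 488 on 5 arrays and 360 on the COLO205 imetelstat array.

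RefSeq promoter sequences (build GRCh38.p14, the 250 bases before the gene start, written in the direction of the gene) were matched for 5 of the 6 measured genes. Those of the 3 ligand genes and of EGFR are shown because the ratios of EREG and HBEGF, imetelstat to vehicle, had the same sign as each other within each line, while that of TGFA had the opposite sign in HCT116 and COLO205. Capitals mark matches, on either strand, to 6 short motifs of general promoters or of signal-driven factors. The TATA box was searched as TATAAA. The CCAAT box was searched by the letters of its name. The GC box, which the factor SP1 binds, was searched as GGGCGG. The AP-1 site was searched as TGAGTCA. The cAMP response element was searched as TGACGTCA. The NF-kB motif was searched in its common form.

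EREG, chr4:74364895-74365144, plus strand: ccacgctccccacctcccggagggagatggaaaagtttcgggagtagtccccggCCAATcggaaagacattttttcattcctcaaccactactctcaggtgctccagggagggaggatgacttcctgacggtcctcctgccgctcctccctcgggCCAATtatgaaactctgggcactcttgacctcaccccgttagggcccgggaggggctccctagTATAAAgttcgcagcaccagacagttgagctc

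TGFA, chr2:70553827-70554076, minus strand: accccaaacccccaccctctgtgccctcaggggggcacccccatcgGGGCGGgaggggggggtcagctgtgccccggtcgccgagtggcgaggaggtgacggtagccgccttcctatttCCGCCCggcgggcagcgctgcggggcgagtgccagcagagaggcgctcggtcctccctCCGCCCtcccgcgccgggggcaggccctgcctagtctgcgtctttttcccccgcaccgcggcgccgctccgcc

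HBEGF, chr5:140346604-140346853, minus strand: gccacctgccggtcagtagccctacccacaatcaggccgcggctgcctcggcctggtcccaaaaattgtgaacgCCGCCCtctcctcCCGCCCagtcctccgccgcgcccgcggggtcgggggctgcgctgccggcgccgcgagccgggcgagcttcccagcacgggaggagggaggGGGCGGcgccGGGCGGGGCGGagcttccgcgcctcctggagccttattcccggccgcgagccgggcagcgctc

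EGFR, chr7:55018767-55019016, plus strand: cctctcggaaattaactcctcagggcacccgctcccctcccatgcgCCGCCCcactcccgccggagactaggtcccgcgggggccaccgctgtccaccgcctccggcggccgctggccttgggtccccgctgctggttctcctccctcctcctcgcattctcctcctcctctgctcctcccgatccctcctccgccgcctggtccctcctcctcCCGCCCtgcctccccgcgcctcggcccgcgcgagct

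The EREG window held a TATA box 32 to 27 bases before the start and 2 CCAAT boxes, and no GC box. The windows of TGFA, HBEGF and EGFR held 3, 5 and 2 GC boxes, of which 2 in HBEGF share a base, and no TATA or CCAAT box. None of the 4 printed windows held the letters searched for AP-1, the cAMP response element or NF-kB, which says nothing of those factors. Among the same windows of 35116 promoters, 10.7% held the TATA box, 32.0% the CCAAT box, 42.6% the GC box, 4.2% the AP-1 site, 1.65% the cAMP response element and 0.527% the NF-kB site. GC content was 58.0% for EREG, the median of all promoters, and 75.6%, 76.4% and 73.6% for TGFA, HBEGF and EGFR. For TGFA and EGFR the RefSeq table also holds a window of a start further into the gene, which is not printed. That of TGFA held none of the motifs at a GC content of 64.0%, and that of EGFR held 2 TATA boxes and 2 AP-1 sites and no GC box at 38.8%. The statements above are therefore on the outermost start alone. A match is a description of the letters and not a binding site. The genes EREG (chromosome 4, 74365145 to 74388749) and AREG (74445136 to 74455005) are neighbours, 56386 bases apart.

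EREG, which encodes epiregulin, a ligand of EGFR and ERBB4, was the member that differed most between the agents. Its log2 signal was 8.24 with vehicle and 7.70 with imetelstat in HCT116, 8.31 with vehicle and 8.71 with imetelstat in COLO205, and 7.45 with vehicle and 8.66 with imetelstat in OVCAR5. The OVCAR5 vehicle array was the lowest of the 6 and the OVCAR5 imetelstat array lay among the highest, so that the vehicle and imetelstat arrays overlapped. The imetelstat signal was 231% of vehicle in OVCAR5 (log2 ratio 1.21), the 13th highest ratio of 10538 genes in that line, 132% in COLO205 (0.40) and 68.8% in HCT116 (-0.54). The ratios of the 500 genes of most similar signal scattered by 0.22 on the log2 scale in OVCAR5, a figure for this pair of arrays that cannot stand for the error between cultures. Cell type markers also differed between the same 2 arrays. Of the 10 colon markers detected in OVCAR5, 7 were lower and 3 higher with imetelstat, with a median log2 ratio of -0.20 and a range from -1.32 for CDH17 to 0.57 for CEACAM6, and VIL1 and LGALS4 were detected on the vehicle array alone. Of the 4 ovarian markers detected there, 3 were lower and 1 higher, from -0.63 for MSLN to 0.05 for FOLR1. The part of these shifts in the EREG ratio was not tested.

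Among the 6 measured members, EREG in OVCAR5 was the one ratio of at least 2-fold. At least 2-fold higher with imetelstat stood 0.256% and at least 2-fold lower 0.342% of all 10538 genes in OVCAR5. In HCT116 and COLO205 no member was past 2-fold, where 0.0908% and 0.134% of all genes were at least 2-fold higher and 0.736% and 0.163% lower. The median log2 ratio of the 6 members was -0.14 in HCT116, -0.21 in COLO205 and 0.10 in OVCAR5, beside 0.01, -0.01 and -0.01 for all genes. With background corrected by normexp the OVCAR5 ratio of EREG was 1.66, and with background taken from the detection p-values it was 1.86, where the HCT116 ratio was -0.83.

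**Figure D1:**
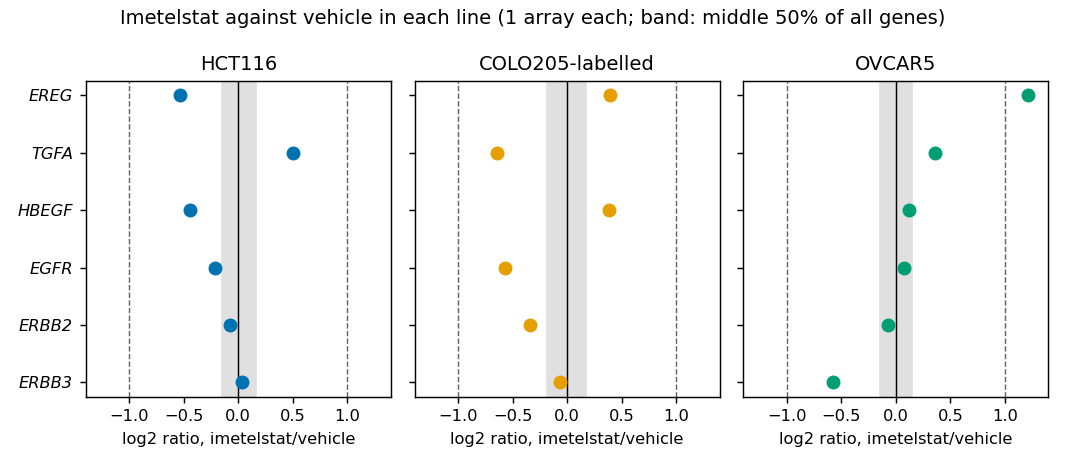
Log2 ratio of imetelstat to vehicle signal for each member in each line, 1 array against 1 array, with the middle 50% of all genes as a grey band and 2-fold as dashed lines. EREG in OVCAR5 (1.21) is the one point past 2-fold, and EREG and TGFA lie on opposite sides of 0 in HCT116 and COLO205.

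TGFA, which encodes TGF-alpha, an EGFR ligand, had ratios opposite in sign to those of EREG in the 2 colon lines. Its log2 signal was 9.32 with vehicle and 9.83 with imetelstat in HCT116, 9.51 with vehicle and 8.87 with imetelstat in COLO205, and 9.38 with vehicle and 9.74 with imetelstat in OVCAR5. The COLO205 imetelstat array was the lowest of the 6, and in the other 2 lines the imetelstat array was above the vehicle array. The imetelstat signal was 142% of vehicle in HCT116 (log2 ratio 0.51, the 272nd highest of 11010 genes), 64.1% in COLO205 (-0.64, the 134th lowest of 10445) and 128% in OVCAR5 (0.35). TGFA in COLO205 was the one member at least 1.5-fold lower in any line, where 2.02% of all genes were that much lower and 1.87% higher. In HCT116, with no member past 1.5-fold, 2.11% of all genes were lower and 1.3% higher by that much, and in OVCAR5, with EREG alone past it, 1.36% lower and 1.48% higher. A second TGFA probe gave 0.64, -0.24 and 0.46, with the same direction in each line and a smaller ratio in COLO205.

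HBEGF, which encodes the heparin-binding EGF-like growth factor, a ligand of EGFR and ERBB4, was measured by 1 probe. Its log2 signal was 8.46 with vehicle and 8.02 with imetelstat in HCT116, 8.17 with vehicle and 8.56 with imetelstat in COLO205, and 9.62 with vehicle and 9.74 with imetelstat in OVCAR5. Both OVCAR5 arrays were higher than every other array. Imetelstat gave 73.7% of vehicle in HCT116 (log2 ratio -0.44), 130% in COLO205 (0.38) and 109% in OVCAR5 (0.12), so that HBEGF and EREG were both lower with imetelstat in HCT116 and both higher in the other 2 lines. The OVCAR5 ratio of HBEGF was the 3059th highest of 10538 genes and within the 0.23 by which genes of similar signal scattered.

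**Figure D2:**
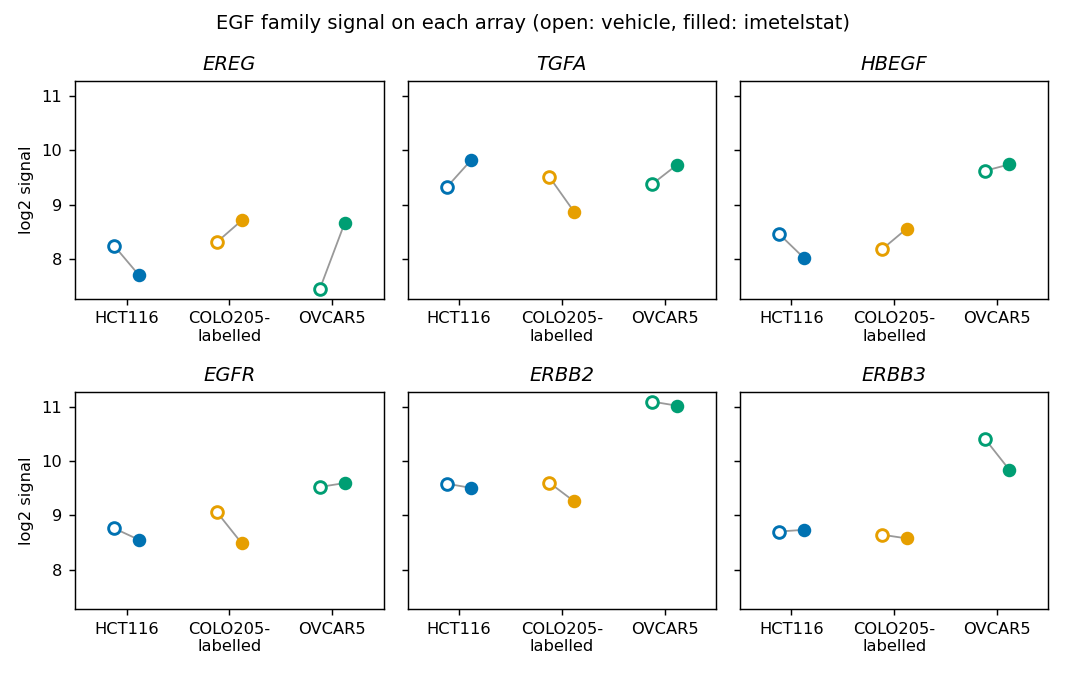
Log2 quantile-normalized signal of each member on each of the 6 arrays, by line, with open points for vehicle and filled points for imetelstat. HBEGF, EGFR, ERBB2 and ERBB3 are highest on both OVCAR5 arrays, and EREG and TGFA overlap between lines.

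EGFR, the receptor shared by these ligands, was measured by a probe of the full-length transcript. Its log2 signal was 8.76 with vehicle and 8.55 with imetelstat in HCT116, 9.06 with vehicle and 8.49 with imetelstat in COLO205, and 9.52 with vehicle and 9.60 with imetelstat in OVCAR5. The OVCAR5 arrays lay above the other 4. Imetelstat gave 86.4% of vehicle in HCT116 (log2 ratio -0.21), 67.3% in COLO205 (-0.57, the 238th lowest of 10445 genes) and 105% in OVCAR5 (0.07). A probe that the annotation pairs with a shorter soluble form gave 0.02, 0.16 and -0.20, so that the COLO205 difference was seen by the full-length probe and not by this dimmer one, and with the mean of the 2 probes it was -0.21. This dimmer probe was also highest in OVCAR5, with 8.39 and 8.19 against 7.16 to 7.42 on the other arrays. Of the 4 EGFR probes 2 were detected, and another probe paired with the same soluble form was detected on no array.

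ERBB2 is the partner receptor with no known ligand. Its log2 signal was 9.59 with vehicle and 9.51 with imetelstat in HCT116, 9.60 with vehicle and 9.26 with imetelstat in COLO205, and 11.10 with vehicle and 11.02 with imetelstat in OVCAR5. The 2 OVCAR5 arrays stood apart from the rest. Imetelstat gave 94.7% of vehicle in HCT116, 78.8% in COLO205 and 94.9% in OVCAR5, with log2 ratios of -0.08, -0.34 and -0.08, all lower and none past 1.5-fold. Of the 3 ERBB2 probes 1 was detected.

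ERBB3, the neuregulin receptor with a weak kinase, had a log2 signal of 8.70 with vehicle and 8.73 with imetelstat in HCT116, 8.64 with vehicle and 8.58 with imetelstat in COLO205, and 10.42 with vehicle and 9.84 with imetelstat in OVCAR5. Both OVCAR5 arrays were above the other 4, and within OVCAR5 the imetelstat array was lower. Imetelstat gave 102% of vehicle in HCT116 (log2 ratio 0.03), 95.4% in COLO205 (-0.07) and 67.0% in OVCAR5 (-0.58, the 147th lowest of 10538 genes). The 2 other ERBB3 probes, paired with the transcript of a shorter secreted form, gave -0.14 and 0.10 in OVCAR5, and the second of them was detected on the 2 COLO205 arrays and on no other. With the mean of the probes the OVCAR5 ratio was -0.21.

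**Figure D3:**
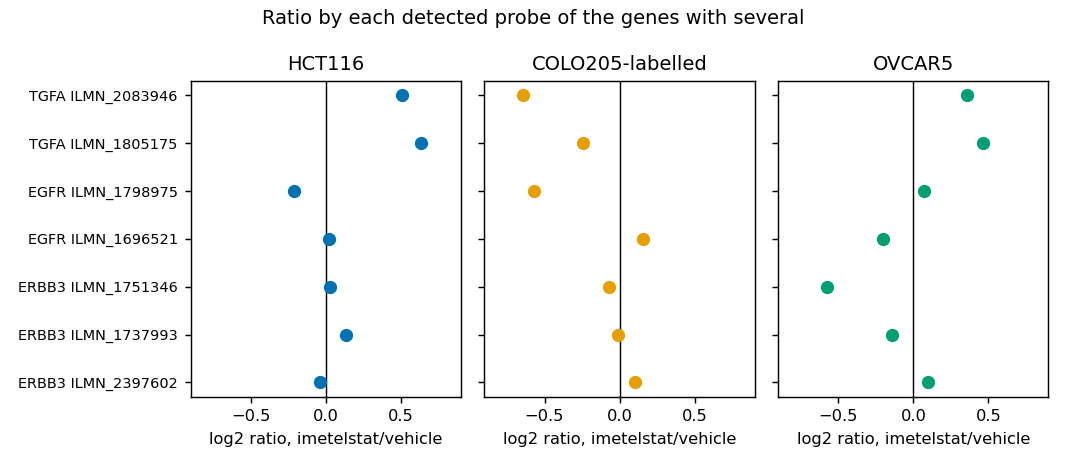
Log2 ratio of imetelstat to vehicle by each detected probe of the members that had several. The TGFA probes share their direction in each line, whereas the EGFR probes differ in COLO205 (-0.57 and 0.16) and the ERBB3 probes in OVCAR5 (-0.58, -0.14 and 0.10).

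The COLO205 ratios depended on how the arrays were scaled. The COLO205 imetelstat array was the one with the lowest mean signal, and after scaling to a common median or with no scaling the median log2 ratio of all genes in that line was -0.26 or -0.31, not -0.01. Under those scalings TGFA was -0.98 and -1.02, EGFR -0.88 and -0.92, ERBB2 -0.70 and -0.74, ERBB3 -0.38 and -0.42, EREG 0.09 and 0.05, and HBEGF 0.08 and 0.04. TGFA, EGFR and ERBB2 were therefore still lower than the median gene, and EREG and HBEGF higher than it. Of the COLO205 genes past 2-fold, 17 were lower and 14 higher after quantile normalization, 111 and 6 after median scaling, and 156 and 6 with no scaling. The part of the array's lower signal in the ratios was not tested.

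**Figure D4:**
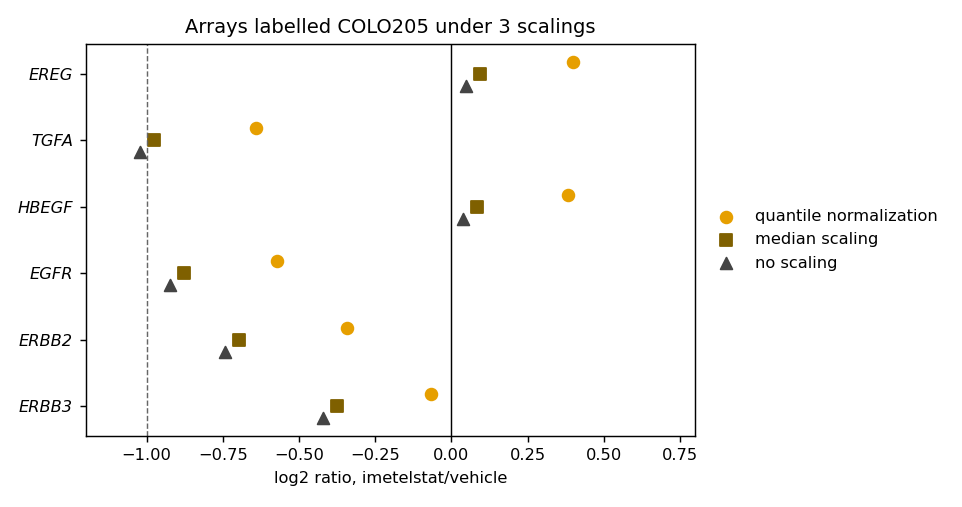
Log2 ratio of imetelstat to vehicle of each member on the arrays labelled COLO205, under quantile normalization, median scaling and no scaling. The ratios shift downward together (TGFA from -0.64 with quantile normalization to -1.02 with no scaling).

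Across the 3 lines taken as pairs, limma's test called none of 12187 genes at a Benjamini-Hochberg adjusted p below 0.05 (0% higher and 0% lower), and 329 genes (2.7%) had an unadjusted p below 0.05. A plain paired test also called none. The mean log2 ratio was 0.36 (SE 0.25, n = 3 lines; 95% interval -0.20 to 0.92) for EREG, 0.07 (0.20; -0.37 to 0.51) for TGFA and 0.02 (0.16; -0.33 to 0.37) for HBEGF. The receptors had -0.24 (0.14; -0.56 to 0.08) for EGFR, -0.17 (0.12; -0.44 to 0.11) for ERBB2 and -0.20 (0.14; -0.53 to 0.12) for ERBB3. These SEs and intervals are limma's, which draws the spread of each gene towards that of all genes. The plain paired test uses the ratios of each gene alone. Its SE was 0.51 for EREG, 0.24 for HBEGF, 0.19 for EGFR and ERBB3, and 0.09 for ERBB2. For EREG, HBEGF, EGFR and ERBB3 it was larger than limma's SE, and the ratios of TGFA also spread more than limma's SE allows for. The intervals of these members are therefore narrower than the spread of their own 3 ratios would give. For ERBB2 it was smaller, but an interval from 3 ratios alone takes a larger multiple of its SE. Each adjusted p was 1.00 by limma. The intervals are not adjusted for the 12187 genes tested and are not limits of detection. The 329 genes with an unadjusted p below 0.05 were not called either, so that changes outside these intervals could also be missed with 3 pairs. Without the COLO205 pair the means were 0.34 for EREG, 0.43 for TGFA, -0.16 for HBEGF, -0.07 for EGFR, -0.08 for ERBB2 and -0.27 for ERBB3, and no member was called. The EREG mean rested on OVCAR5 and HCT116, with -0.07 without the OVCAR5 pair and 0.80 without the HCT116 pair.

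Levels between lines separated the members into 2 groups. HBEGF, EGFR, ERBB2 and ERBB3 were higher in OVCAR5 than in either other line, and EREG and TGFA passed no test between lines. The fit gave all arrays 1 common spread and compared 2 arrays per line, 1 of each agent, so that its p-values measure what line and agent leave and not separate cultures. Against HCT116, OVCAR5 was 2.72-fold higher for HBEGF (log2 difference 1.44, SE 0.20, limma adjusted p = 0.00021), 1.87-fold for EGFR (0.90, SE 0.18, adjusted p = 0.00216), 2.86-fold for ERBB2 (1.52, SE 0.15, adjusted p = 2.82e-05) and 2.66-fold for ERBB3 (1.41, SE 0.18, adjusted p = 0.000126). Against COLO205 the log2 differences were 1.32 for HBEGF, 0.79 for EGFR, 1.63 for ERBB2 and 1.52 for ERBB3, with limma adjusted p-values of 0.00037, 0.00463, 1.6e-05 and 7.3e-05. Thus 4 of 6 members were called higher in OVCAR5 and none lower in each comparison, where 19.3% and 19.6% of all genes were called higher and 21.7% and 22.2% lower. The median difference of the members was 1.16 and 1.05, beside -0.04 for all genes in each comparison. The EGFR call against COLO205 was lost without the COLO205 imetelstat array (0.54, adjusted p = 0.0605) and without the OVCAR5 imetelstat array (0.56, adjusted p = 0.0856). Tested against a 2-fold difference by limma's treat, ERBB2 against COLO205 was the one member called. With the mean of its probes the ERBB3 difference was 0.57 against HCT116 and 0.56 against COLO205, and both were still called.

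**Figure D5:**
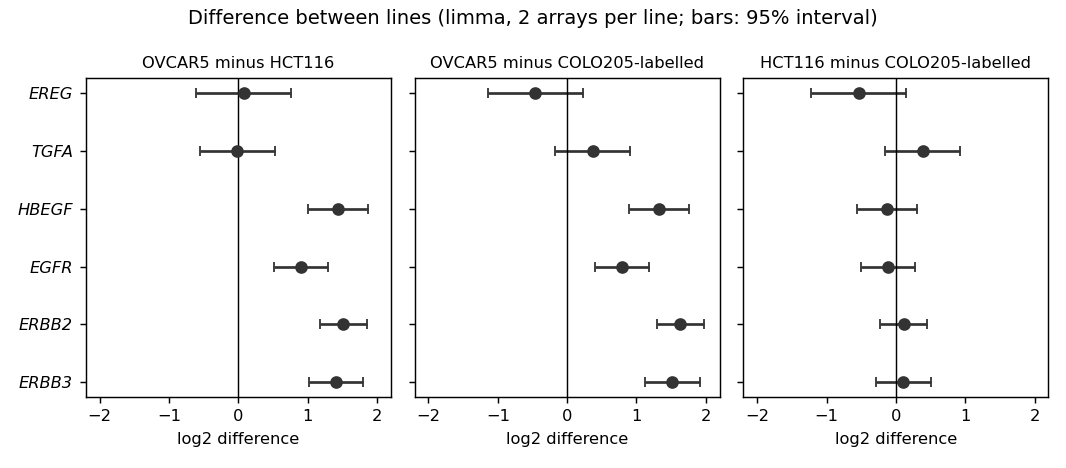
Log2 difference between lines for each member from the limma fit, with 95% intervals, 2 arrays per line. HBEGF, EGFR, ERBB2 and ERBB3 lie above 0 in both comparisons with OVCAR5, and the intervals of EREG and TGFA include 0.

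For EREG, OVCAR5 differed by 0.08 from HCT116 (95% interval -0.60 to 0.77) and by -0.46 from COLO205 (-1.14 to 0.23), and for TGFA by -0.01 (-0.55 to 0.52) and 0.37 (-0.17 to 0.91). These comparisons turned on single arrays. EREG was called lower in OVCAR5 than in COLO205 without the OVCAR5 imetelstat array (-1.10, adjusted p = 0.00399), and higher than in HCT116 without the HCT116 vehicle array (0.75, adjusted p = 0.0441) or the OVCAR5 vehicle array (0.72, adjusted p = 0.0496). TGFA was called higher in OVCAR5 than in COLO205 without the COLO205 vehicle array (0.90, adjusted p = 0.00383), and higher in HCT116 than in COLO205 without that same array (0.92, adjusted p = 0.0478). Between HCT116 and COLO205 no member was called with all arrays, where 0.73% of all genes were higher and 0.279% lower, and the differences ran from -0.54 for EREG to 0.38 for TGFA. By mean level the order was OVCAR5, then HCT116 and COLO205 for ERBB2 and ERBB3, and OVCAR5, then COLO205 and HCT116 for HBEGF and EGFR, with the last 2 lines not separated by the test. The colon and ovarian carcinoma marker medians given above were also higher on the OVCAR5 arrays. The colon median was bound to be higher there, because most of its genes were kept through OVCAR5 signals alone. CDX2, PAX8 and EMX2 were not called between any 2 lines. What part the marker signals had in the line differences of the members was not tested.

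Among the other genes of the pathway, 2 differed at least 2-fold between the agents in a line, and the share called between the lines varied from list to list. Of 7 ligands of EGFR, 5 were detected. Besides the 3 members they were EGF, detected on both OVCAR5 arrays and on no other, and betacellulin (BTC), detected on both HCT116 arrays and on no other. EGF, the founding ligand, was at least 1.23-fold higher in OVCAR5 than in HCT116 and at least 1.18-fold than in COLO205, a bound taken against the lowest detected signal and given with no test because EGF was kept through its OVCAR5 signals alone, and its log2 ratio with imetelstat was 0.17 in OVCAR5. BTC had a log2 ratio of -0.30 in HCT116. ERBB4, the other neuregulin receptor, was not detected on any array, nor were the neuregulin genes NRG1, NRG2 and NRG3. NRG4 was detected on both OVCAR5 arrays and on no other, at least 1.42-fold and 1.35-fold higher than in HCT116 and COLO205 by the same kind of bound, with a log2 ratio of 0.37.

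Of 8 genes for ligand release, 7 were detected and none was past 2-fold with imetelstat in any line. RHBDF1 and RHBDF2, the inactive rhomboids that govern the ADAM17 sheddase, had ratios of 0.41 and -0.49 in HCT116. Their levels in OVCAR5 were higher than in HCT116 by 2.13 (SE 0.17, limma adjusted p = 6.6e-06) and 1.01 (SE 0.17, adjusted p = 0.000827) on the log2 scale, and ADAM10 and ADAM17, named after their values were seen, by 1.67 (adjusted p = 1.48e-05) and 0.89 (adjusted p = 0.00132). In all, 4 of the 7 were called higher in OVCAR5 than in HCT116 and 5 than in COLO205, and none lower, where 19.3% and 19.6% of all genes were called higher. CD9 and NRDC, also named after their values were seen, differed by -0.26 and -0.34 from HCT116 and were not called. ADAM12 was not detected.

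Downstream, the adaptors (10 of 11 detected, GAB1 not) showed no ratio past 2-fold, with the largest at -0.39 for the adaptor NCK1 in OVCAR5 and -0.38 for SHC1 in COLO205. Among the receptor inhibitors and turnover genes 17 of 19 were detected, LRIG3 not, and the largest ratios were -0.61 for the deubiquitinase USP8 in COLO205 and -0.56 for the phosphatase PTPN2 in OVCAR5. The ERK feedback and target genes, 18 of 20 detected (SPRED3 and ETV1 not), held the 2 ratios of the pathway lists past 2-fold: SPRY4, a Sprouty inhibitor of the pathway, at -1.08 in COLO205, and DUSP5, a nuclear ERK phosphatase, at -1.06 in HCT116. The log2 signals of SPRY4 were 9.65 with vehicle and 8.57 with imetelstat in COLO205 and 9.70 to 10.08 on the 4 other arrays. Those of DUSP5 were 12.02 with vehicle and 10.96 with imetelstat in HCT116, about as low as 11.11 on the COLO205 vehicle array, and 12.11 and 12.46 in OVCAR5. Between lines, 6 of the 18 ERK genes were called higher and 5 lower in OVCAR5 than in HCT116, with a median difference of -0.13, and as many against COLO205, with a median of -0.08. FOS and EGR1, immediate early transcription factors, and SPRY1, a Sprouty inhibitor, were higher in OVCAR5 than in HCT116 by 4.63, 2.06 and 2.06 on the log2 scale, and PHLDA1 differed by -1.79. These 4, named after their values were seen, were called by limma in both comparisons. Of the 17 inhibitor and turnover genes 5 were called higher and 6 lower in OVCAR5 than in HCT116, and of the 10 adaptors 2 and 3. Of all genes, 19.3% were called higher and 21.7% lower against HCT116, and 19.6% and 22.2% against COLO205. Whether the lists differ from these shares was not tested.

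Of the RAS to ERK genes 6 of 12 were measured, with HRAS at 0.68 in OVCAR5 and MAPK3, which encodes the ERK1 kinase, at 0.53 in HCT116. Of the PI3K and AKT genes 4 of 10 were measured, AKT2 and PIK3R3 not detected, with AKT1 at 0.31 in HCT116 and PIK3R1 at -0.22 in COLO205. In the fit across lines no gene of these lists was called in either direction. Between OVCAR5 and HCT116, 2 of the 6 RAS to ERK genes were called higher and 0 lower, beside 19.3% and 21.7% of all genes. Of the 4 PI3K and AKT genes 0 were called there.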

How the data were processed

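RNA of 3 cell lines with imetelstat or vehicle was measured on 6 Illumina HumanHT-12 arrays. The authors deposited signal intensities from GenomeStudio, averaged over beads, linear, and neither background-subtracted nor normalized between arrays. Their deposited detection p-values rank a probe against negative control beads. The authors' processed intensities are quantile-normalized on a linear scale and served as an alternative.

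The log2 signals were quantile-normalized with limma 3.58.1 in R 4.3.3. The annotation gave 1 gene symbol to 30113 of 47231 probes, several to 8 and none to 17110, and 30074 were brought up to date through their gene identifier. Probes with a detection p-value below 0.01 on at least 1 array were kept, and the brightest stood for its gene. Within a line genes were called by size (2-fold, with no test). Across lines limma's lmFit and eBayes were fitted with the line as a block, since the line is the pair, with Benjamini-Hochberg adjustment over 12187 genes at 0.05, and contrasts between lines came from the same fit. The fit was run on simulated data as a check of the code. Their spread came from the fit's own estimate and each effect was the same in all lines. Such data cannot tell how the fit serves genes whose ratios differ between lines. The members and lists were chosen with earlier results of these data known. Genes named from the lists were those past 2-fold in any line, up to 4 by size, or else the 2 with the largest ratio, and undetected ones, and for each member spanning at least 1 on the log2 scale over the arrays, the 2 genes nearest in profile. ADAM10, ADAM17, CD9, NRDC, FOS, EGR1, SPRY1, PHLDA1, GRB7 and the cell type markers were named after their values were seen. Background correction, scaling, filters, probe choice, variance model, fold limits and left-out arrays were varied. The number of arrays limits every precision. The labels do not say that arrays of a line came from replicate cultures, so p-values measure only the spread between these arrays. Promoters were read with Python 3.11.15 from RefSeq (GRCh38.p14).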

Additional observations from a re-analysis of the deposited data

Results flagged for a closer look

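3 member genes moved in opposite directions in 2 lines under the same comparison, with 1 array of each agent per line, and none of these differences between lines was tested. The EREG log2 ratio of imetelstat to vehicle was 1.75 higher in OVCAR5 (1.21) than in HCT116 (-0.54). The TGFA ratio was 1.15 higher in HCT116 (0.51) than in COLO205 (-0.64). The HBEGF ratio was 0.82 higher in COLO205 (0.38) than in HCT116 (-0.44). Under median scaling and no scaling the HBEGF ratio in COLO205 was 0.08 and 0.04, below the 0.26 by which genes of similar signal scattered there. The rise of HBEGF in COLO205 thus depended on the scaling. The COLO205 arrays were nearly as close to the HCT116 arrays as the 2 HCT116 arrays were to each other.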

How the results depend on the processing

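The 4 calls of higher levels in OVCAR5 were kept under every background correction, scaling and filter tried. They were also kept with the mean of the detected probes. For each probe on its own the calls between lines were not counted, so that setting gives no result for them. The exceptions were the left-out arrays given for EGFR and the treat test. The treat test against 2-fold called 1 member against COLO205 and 0 against HCT116. No member was called across lines under any alternative. Leaving out 1 line called 0 to 13 genes there, 3 without the COLO205 pair and 13 without the OVCAR5 pair, and a fit with no replicate block called 0. In COLO205, 1 member was past the limit with no scaling (TGFA at -1.02) and 1 at a limit of 1.5-fold. Leaving out 1 array or pair, members called higher ranged from 0 to 1 for HCT116 minus COLO205.

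Some small differences turned sign. Under median scaling and no scaling the HCT116 minus COLO205 difference was 0.064 and 0.16 for EGFR and 0.063 and 0.16 for HBEGF, and the mean ratio across lines was -0.086 and -0.11 for HBEGF and -0.044 and -0.065 for TGFA. With the mean of probes the HCT116 minus COLO205 difference of ERBB3 was -0.0083. With 1 array, pair or line left out, HCT116 minus COLO205 ranged from -0.37 to 0.14 for EGFR, -0.018 to 0.25 for ERBB2, -0.069 to 0.28 for ERBB3, -1.21 to 0.13 for EREG, -0.47 to 0.22 for HBEGF and -0.15 to 0.92 for TGFA. OVCAR5 minus COLO205 ranged from -1.10 to 0.18 for EREG and -0.17 to 0.90 for TGFA, and OVCAR5 minus HCT116 from -0.59 to 0.75 and -0.34 to 0.31. Mean ratios across lines ranged from -0.071 to 0.80 for EREG, -0.16 to 0.25 for HBEGF and -0.14 to 0.43 for TGFA. Where 1 array of a line was left out, the lone array was assumed to vary like the others. The cause was not tested.

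Counts of all genes varied more: 123 genes were called between HCT116 and COLO205 and 2 to 266 under alternatives, and 5000 and 5101 between OVCAR5 and HCT116 or COLO205, 628 to 6212 and 666 to 6435 under alternatives. Past 2-fold lower and higher in HCT116, COLO205 and OVCAR5 stood 166 and 60, 109 and 76, and 89 and 74 genes with normexp at an offset of 16, and 204 and 111, 224 and 178, and 171 and 126 with background from the detection p-values, an alternative chosen after seeing the data as were the left-out arrays between lines, against 81 and 10, 17 and 14, and 36 and 27. Signals of EGF, BTC and NRG4 were above background in 1 line each, so that their differences between lines have a bound at most. With background from the detection p-values EREG was 1.86 in OVCAR5 and -0.83 in HCT116.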

Other observations

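GRB7, an adaptor gene beside ERBB2 on chromosome 17, was examined after its values were seen. Its log2 signal was 8.94 with vehicle and 8.93 with imetelstat in HCT116, 8.78 with vehicle and 8.44 with imetelstat in COLO205, and 8.75 with vehicle and 9.09 with imetelstat in OVCAR5. GRB7 differed by -0.02 (SE 0.18, limma adjusted p = 0.955) between OVCAR5 and HCT116, while ERBB2 differed by 1.52 (SE 0.15). Copy number was not measured, and the cause of either value was not tested.

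The genes whose levels over the 6 arrays lay nearest to each member, by Euclidean distance of centred log2 signals, were C19orf33 (distance 0.45) and RAB4B (0.60) for EREG, NHSL3 (0.22) and SAR1B (0.26) for HBEGF, PPP4R1 and MMP28 (0.18 each) for EGFR, MTRR (0.12) and ADAM9 (0.13) for ERBB2, and CASP1 (0.11) and GRIP2 (0.17) for ERBB3. Over the 6 arrays, which share 3 lines, Pearson's r was 0.936 for C19orf33 with EREG and 0.985 for RAB4B, as a description. C19orf33 had log2 signals of 10.73 with vehicle and 11.64 with imetelstat in OVCAR5 and 11.03 and 10.65 in HCT116, and so moved the same way as EREG in both lines. CASP1 and GRIP2 were detected on the OVCAR5 arrays and on no other.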
